A study of Mus musculus with 39 samples.

Results

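S100a8, S100a9, Cxcr2, Mmp8, Ngp, Ltf and Camp, 7 transcripts that mark neutrophils, were followed through RNA sequencing of microglia sorted from the mouse striatum. The rows were found by matching Ensembl identifiers to these symbols in GENCODE release M21, which gave 7 of the 55487 genes in the table, 1 row each. The mice were males aged 8 to 10 weeks. They had received lipopolysaccharide (LPS, an outer membrane molecule of bacteria that triggers inflammation through TLR4) by intraperitoneal injection at 4500 endotoxin units per gram, or saline (SAL), 18 hours before the cells were collected. Live cells that were CD11b positive, CD45 low and P2RY12 positive were sorted, per the labels.

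Each group has 3 terms in its label. The prenatal term is CON (control) or MIA (maternal immune activation, the term of the series design). The middle term is CON or PLX, which the labels leave undefined, and the last is LPS or SAL. The first and middle terms joined by a colon name an arm, MIA:PLX for example. The 8 groups used were CON:CON LPS with 4 libraries and CON:CON SAL with 4, MIA:CON LPS with 6 and MIA:CON SAL with 4, CON:PLX LPS with 6 and CON:PLX SAL with 4, and MIA:PLX LPS with 6 and MIA:PLX SAL with 3. The sources used here name neither the strain, nor the agent behind MIA, nor any pooling of animals.

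Neutrophils are short-lived white blood cells that leave the bone marrow in large numbers during infection. S100A8 and S100A9 form the heterodimer calprotectin, which makes up much of their cytosolic protein and is also made by monocytes. Their precursors in the marrow load secondary granules with lactoferrin (Ltf), cathelicidin (Camp) and neutrophilic granule protein (Ngp), and transcribe these granule genes before maturity, whereas the collagenase Mmp8 and the chemokine receptor Cxcr2 are transcribed later. Circulating neutrophils carry CD11b with high CD45 and lack P2RY12, so a gate for CD45-low, P2RY12-positive cells is one that leaves them out.

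The S100a8 and S100a9 genes lie close together on chromosome 3, and Ngp, Ltf and Camp lie on chromosome 9 with Mmp8. In GENCODE M21 (GRCm38), S100a8 (ENSMUSG00000056054.9) spans chr3:90668978-90670035 on the plus strand and S100a9 (ENSMUSG00000056071.12) spans chr3:90692632-90695721 on the minus strand. Cxcr2 (ENSMUSG00000026180.8) spans chr1:74153989-74161246 on the plus strand. Mmp8 (ENSMUSG00000005800.3) spans chr9:7558456-7568485, Ngp (ENSMUSG00000032484.8) chr9:110419747-110423012 and Ltf (ENSMUSG00000032496.7) chr9:111019271-111042767, all on the plus strand. Camp (ENSMUSG00000038357.10) spans chr9:109847379-109849617 on the minus strand. No member overlaps another annotated gene, which matters because the libraries keep no strand information.

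Promoter sequence is shown for the calprotectin genes, whose levels moved together, and for Cxcr2, which was counted in libraries with few calprotectin counts. It is also shown for the granule genes Ngp and Ltf. Pooled over libraries, the share of the granule genes in the member counts differed between LPS and saline. The bases are from RefSeq (GRCm38.p6), 5' to 3' on the strand of the gene, and end before the annotated start of the gene. They are chr3:90668821-90668977 for S100a8, chr3:90695722-90695971 for S100a9, chr1:74153744-74153988 for Cxcr2, chr9:110419558-110419746 for Ngp and chr9:111019042-111019270 for Ltf. Capitals mark matches, on either strand, to TTGCNNAA (letters of C/EBP type, after a family of factors active in granulocyte maturation) or GAGGAA (letters of the ETS type that PU.1 binds).
S100a8: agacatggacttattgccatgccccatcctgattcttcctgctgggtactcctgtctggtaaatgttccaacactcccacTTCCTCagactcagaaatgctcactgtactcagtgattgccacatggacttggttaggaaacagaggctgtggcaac
S100a9: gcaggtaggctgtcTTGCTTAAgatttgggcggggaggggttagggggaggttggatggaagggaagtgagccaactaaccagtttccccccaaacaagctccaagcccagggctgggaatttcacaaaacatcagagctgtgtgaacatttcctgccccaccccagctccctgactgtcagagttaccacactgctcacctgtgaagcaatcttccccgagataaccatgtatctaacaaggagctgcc
Cxcr2: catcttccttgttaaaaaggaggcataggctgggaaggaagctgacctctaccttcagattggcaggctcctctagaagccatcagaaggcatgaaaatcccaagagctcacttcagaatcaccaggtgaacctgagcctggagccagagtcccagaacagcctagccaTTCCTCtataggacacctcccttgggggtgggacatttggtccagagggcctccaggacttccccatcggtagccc
Ngp: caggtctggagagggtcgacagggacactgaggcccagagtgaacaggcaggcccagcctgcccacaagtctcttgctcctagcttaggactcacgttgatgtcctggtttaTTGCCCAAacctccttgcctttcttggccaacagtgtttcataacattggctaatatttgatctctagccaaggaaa
Ltf: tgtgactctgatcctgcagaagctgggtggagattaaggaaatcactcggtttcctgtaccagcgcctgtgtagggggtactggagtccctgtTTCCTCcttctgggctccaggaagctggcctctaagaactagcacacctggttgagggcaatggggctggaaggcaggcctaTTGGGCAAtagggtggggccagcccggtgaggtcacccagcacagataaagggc

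All 7 members had an entry among the RefSeq promoters, searched over the 250 bases before the RefSeq start. TTGCNNAA was matched in S100a9, Mmp8, Ngp and Ltf, and in 9.56% of all 32851 promoters of that length. GAGGAA was matched in S100a8, Cxcr2, Mmp8 and Ltf, and in 23.3% of all promoters. The letters GGGA and TTCC with 2 bases between them, of NF-kB type, were matched in no member and in 1.21% of promoters, and TATAAA only in S100a8 and in 12.4% of promoters. No matches in these promoters overlapped one another. A match is a description of letters in this window and says nothing of binding.

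The 37 libraries used held between 1510020 and 5746239 estimated counts, with a median of 3095162. A level is given in CPM, a gene's counts scaled to a library total of 1000000. The titles of 2 further libraries mark them for exclusion (CON_CON_LPS replicate 3 and MIA_PLX_SAL replicate 1), and they were left out. CON_PLX_SAL replicate 2 stood apart from the other 14 saline libraries in these transcripts, and results that touch it are given with and without it. MIA_CON_LPS replicate 6 and the excluded MIA_PLX_SAL replicate 1 had nearly the same profile: their chi-square per degree of freedom was 1.53, the lowest of 741 pairs, against 2.42 for the next pair. Nothing in the labels says that replicates came from separate animals, so the p-values reflect the spread among these samples alone, and that spread may be technical. In bulk RNA, fewer cells of a type and less RNA per cell cannot be told apart.

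The neutrophil transcripts were rare in saline libraries and present in all LPS libraries. Summed over the 7 members, the 22 LPS libraries held 3.73 to 122 CPM with a median of 36.1. The 14 saline libraries other than CON_PLX_SAL replicate 2 held 0 to 9.40 CPM with a median of 0.418, and 19 of the 22 LPS libraries lay above all of them. CON_PLX_SAL replicate 2 itself held 120 CPM, more than all LPS libraries but 1. By group, the sum was 22.5 ± 19.6 CPM (SD, n = 4) in CON:CON LPS, 42.6 ± 44.7 (SD, n = 6) in MIA:CON LPS, 36.5 ± 5.62 (SD, n = 6) in CON:PLX LPS and 48.5 ± 29.0 (SD, n = 6) in MIA:PLX LPS. The saline groups held 0.997 ± 1.48 (SD, n = 4) in CON:CON, 2.42 ± 4.08 (SD, n = 4) in MIA:CON and 6.004 ± 4.91 (SD, n = 3) in MIA:PLX. CON:PLX SAL held 31.1 ± 59.5 (SD, n = 4), or 1.40 ± 2.24 (SD, n = 3) without replicate 2. Single libraries carried some of these means: without CON:CON LPS replicate 5 the mean was 13.1 CPM, without MIA:CON LPS replicate 3 it was 26.7, without CON:CON SAL replicate 2 it was 0.284 and without MIA:CON SAL replicate 1 it was 0.383. CON:PLX LPS was the group with the smallest spread among the LPS groups.

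Levels of different genes were compared only per kilobase of exon. Over the 22 LPS libraries, S100a9 had a median of 23.2 CPM per kilobase and S100a8 of 14.6. Ngp followed at 2.47, Cxcr2 at 2.36 and Mmp8 at 1.26, and Ltf and Camp had medians of 0. In mean level the order was S100a9, S100a8, Ngp, Cxcr2, Mmp8, Camp and Ltf, with S100a8 at 16.5 and Ngp at 2.64 CPM per kilobase. Each neighbour in it differed from the next by less than the larger of their SDs over libraries. All genes were counted in the same libraries, so these SDs do not measure how well the order holds within a library.

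**Figure D1:**
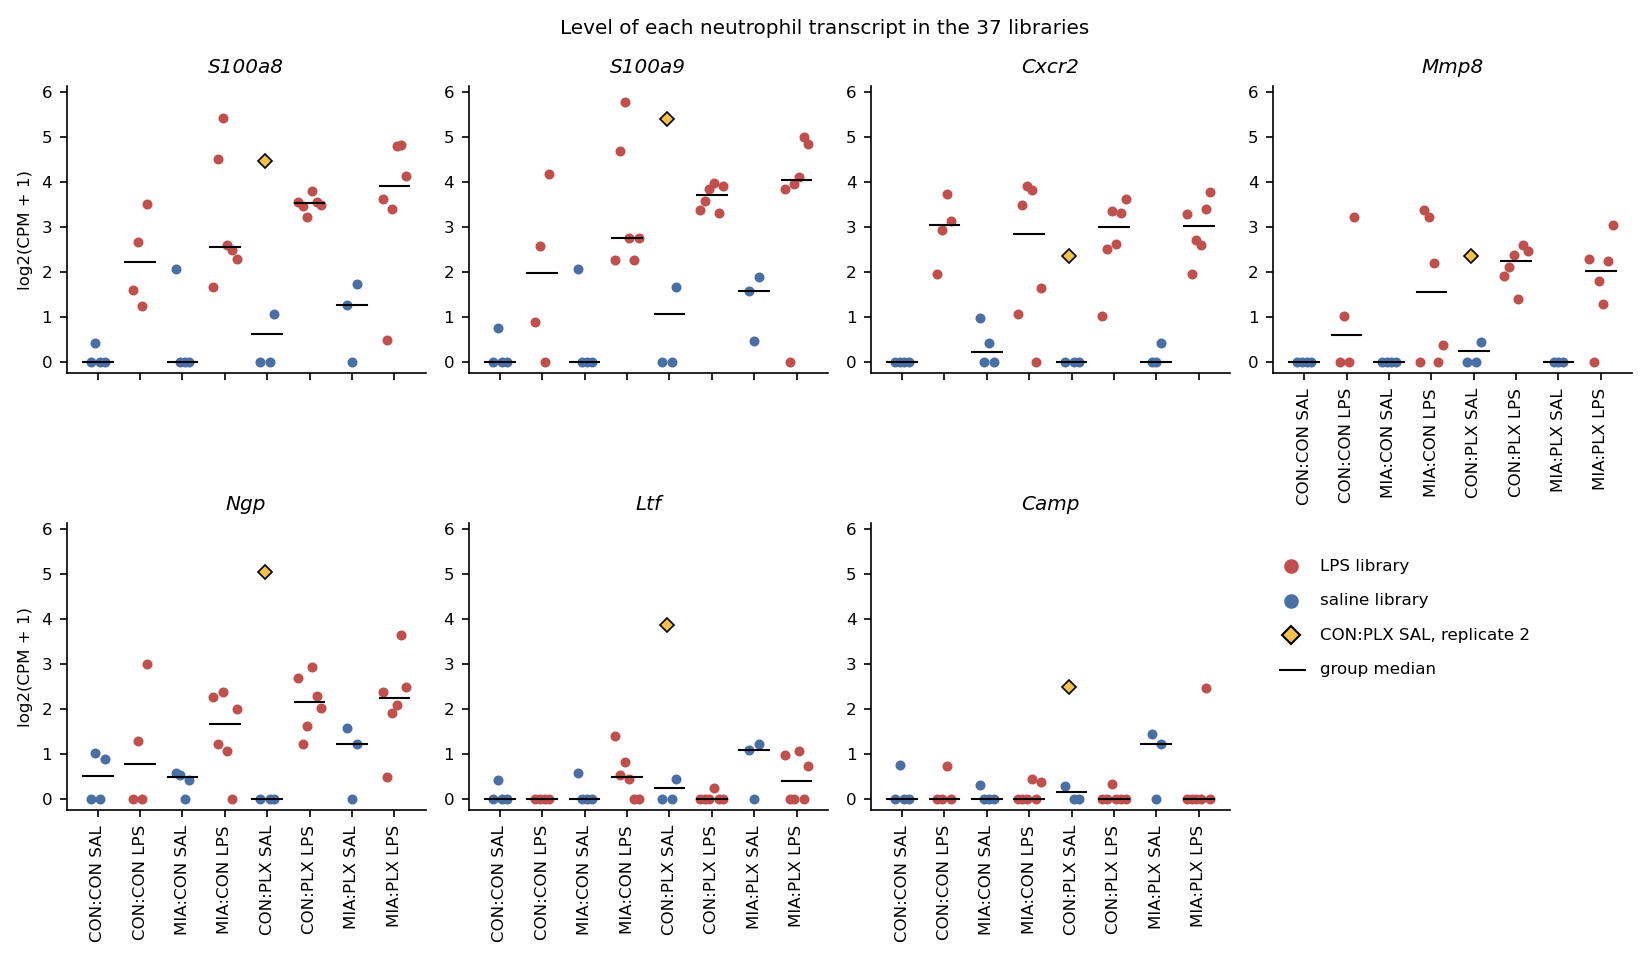
Level of each member, as log2(CPM + 1), in every library of the 8 groups (37 libraries). Circles are libraries, black lines are group medians and the diamond is CON_PLX_SAL replicate 2, which lies above the other saline libraries for all 7 members and above all LPS libraries for Ngp, Ltf and Camp.

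S100a8 was counted in every LPS library used and in 6 of the 15 saline libraries. In CON:CON it stood at 2.02, 5.38, 1.35 and 10.4 CPM after LPS, against 0, 0.348, 0 and 0 after saline, and the groups did not overlap. In MIA:CON the 6 LPS libraries ran from 2.18 through a median of 4.84 to 41.3 CPM, and the saline libraries stood at 3.17, 0, 0 and 0. In that arm 1 LPS library lay below the highest saline library. The 6 CON:PLX LPS libraries ran from 8.37 through 10.5 to 12.97 CPM, and the saline libraries stood at 0, 20.9, 0 and 1.09. All 6 lay below replicate 2 and above the other 3 saline libraries. In MIA:PLX the LPS libraries ran from 0.415 through 13.9 to 27.2 CPM and the saline libraries stood at 1.42, 0 and 2.35, with 5 of 6 LPS libraries above all saline.

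S100a9 encodes the partner of S100A8 in calprotectin. In CON:CON it stood at 0.863, 4.96, 0 and 17.1 CPM after LPS and at 0, 0.697, 0 and 0 after saline, so that 3 of 4 LPS libraries lay above all saline. In MIA:CON the LPS libraries ran from 3.81 through 5.75 to 53.8 CPM, and the saline libraries stood at 3.17, 0, 0 and 0, with no overlap. The CON:PLX LPS libraries ran from 8.95 through 12.1 to 14.8 CPM, against 0, 41.1, 0 and 2.17 in saline. Replicate 2 again exceeded every LPS library of its arm. In MIA:PLX the LPS libraries ran from 0 through 15.3 to 30.9 CPM and the saline libraries stood at 1.99, 0.379 and 2.68. Over the 22 LPS libraries log2(CPM + 1) of S100a8 and S100a9 had a Pearson r of 0.95 (Spearman rho 0.91), a description of libraries that share preparation and depth.

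Cxcr2, the receptor through which CXC chemokines draw neutrophils out of the marrow and into tissue, was higher in 21 of the 22 LPS libraries than in any of the 14 other saline libraries, against 19 for S100a9 and 18 for S100a8. In CON:CON it stood at 2.88, 6.62, 12.2 and 7.76 CPM after LPS whereas its 4 saline libraries had no count. In MIA:CON the LPS libraries ran from 0 through 6.18 to 14.03 CPM and the saline libraries stood at 0.976, 0, 0.344 and 0. There 5 of 6 LPS libraries lay above all saline, and the remaining library had no count. The CON:PLX LPS libraries ran from 1.04 through 7.03 to 11.4 CPM, and saline was at 0, 4.13, 0 and 0. In MIA:PLX the LPS libraries ran from 2.90 through 7.13 to 12.6 CPM, above the saline libraries at 0, 0 and 0.336. Only CON_PLX_SAL replicate 2, with 17 counts, held more than 4 counts of Cxcr2 among the saline libraries.

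Mmp8, the neutrophil collagenase, was at 0 in every saline library except CON_PLX_SAL replicates 2 and 4. In CON:CON the LPS libraries stood at 0, 1.03, 0 and 8.30 CPM, so the group rested largely on replicate 5, with 31 of its 36 counts. The MIA:CON LPS libraries ran from 0 through 1.96 to 9.36 CPM, the CON:PLX LPS libraries from 1.64 through 3.76 to 5.07, and the MIA:PLX LPS libraries from 0 through 3.08 to 7.28. In CON:PLX the saline libraries stood at 0, 4.13, 0 and 0.362 CPM. CON:PLX was the only arm in which all LPS libraries had an Mmp8 count.

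Among the secondary granule genes, Ltf and Camp were low or absent in most libraries of both kinds. Ngp was low or absent in most saline libraries and had a median of 3.02 CPM over the LPS libraries. Ngp had counts in 19 of 22 LPS libraries and in 7 of the 14 saline libraries other than CON_PLX_SAL replicate 2. It stood at 0, 1.45, 0 and 6.96 CPM in CON:CON LPS against 0, 1.05, 0 and 0.853 in saline. The MIA:CON LPS libraries ran from 0 through 2.17 to 4.17 CPM against 0.488, 0.457, 0 and 0.347 in saline. The CON:PLX LPS libraries ran from 1.34 through 3.45 to 6.57 CPM against 0, 31.8, 0 and 0 in saline, and the MIA:PLX LPS libraries from 0.415 through 3.72 to 11.5 against 1.99, 0 and 1.34. Ngp in CON_PLX_SAL replicate 2 was higher than in any LPS library.

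Ltf and Camp, lactoferrin and cathelicidin, had 16 counts each over all 22 LPS libraries and 12 and 14 counts over the 14 other saline libraries. In CON_PLX_SAL replicate 2 alone they had 56 and 19 counts, or 13.6 and 4.62 CPM. The highest LPS library reached 1.63 CPM of Ltf and 4.53 CPM of Camp, the latter in MIA:PLX LPS replicate 5, which held 11 of the 16 Camp counts. At this depth 3 counts over all LPS libraries correspond to 0.0407 CPM. The groups overlapped for both genes in all 4 arms.

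The test of LPS against saline used edgeR's quasi-likelihood test over 13420 genes, with Benjamini-Hochberg adjustment, and calls needed an adjusted p below 0.05. S100a8, S100a9, Cxcr2, Mmp8 and Ngp passed the filter on low counts, and Ltf and Camp did not. The 5 passed it through their LPS libraries, so that they could hardly pass without differing, and counts of calls among them are a description. A fitted log2 fold change of Cxcr2, Mmp8 or Ngp depends on the prior count where a saline group is at 0, and is then no bound. The SE beside an edgeR change was back-calculated as the size of the change over the square root of the test's F statistic. The test itself gives no SE, so these values are approximate.

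Averaged over the 4 arms, all 5 tested members were higher after LPS, where 30.3% of all genes tested were called higher. The log2 fold change was 3.60 ± 0.694 (SE) for S100a8 (adjusted p 4.82e-05), 3.32 ± 0.759 for S100a9 (adjusted p 0.000418), 5.10 ± 0.674 for Cxcr2 (adjusted p 1.35e-07) and 5.34 ± 1.05 for Mmp8 (adjusted p 0.00011). Ngp was at 1.61 ± 0.697 with an adjusted p of 0.0489, and that call was lost in 26 of the 37 fits that each left out 1 library, with adjusted p up to 0.191. The median over the 5 members was 3.60, against 0.03 over all genes tested. Without CON_PLX_SAL replicate 2 the changes were 4.63 ± 0.631 for S100a8, 4.35 ± 0.691 for S100a9, 6.27 ± 0.677 for Cxcr2, 6.11 ± 1.02 for Mmp8 and 3.50 ± 0.664 for Ngp, all called (Ngp at an adjusted p of 3.77e-05). Among all genes, 29.2% were then called higher.

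In CON:CON, 3 of the 5 were called higher after LPS, where 13.7% of all genes were. The ratio of S100a8 counts, corrected for depth, was 66.5 (95% interval 11.6 to 2661, counting error only; adjusted p 0.0305). Cxcr2 was at least 31.2-fold higher and Mmp8 at least 10.5-fold higher, each set against 3 counts over the saline group (adjusted p 0.00121 and 0.0478). S100a9 had a ratio of 39.8 (95% interval 10.7 to 334) and an adjusted p of 0.0576 (0.0346 without LPS replicate 4), and Ngp a log2 fold change of 2.39 ± 1.52 (adjusted p 0.266). S100a8 and Cxcr2 did not overlap between the groups, as held for 8.62% of all genes. The S100a8 and Mmp8 calls were each lost without LPS replicate 5 and without any of the 4 saline libraries, and the Cxcr2 call was not lost in any of these 8 fits.

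In MIA:CON, 4 of the 5 were called higher, against 14.5% of all genes. S100a8 changed by 3.92 ± 1.22 on the log2 scale (adjusted p 0.0181), S100a9 by 4.22 ± 1.41 (adjusted p 0.027) and Cxcr2 by 4.21 ± 1.13 (adjusted p 0.00656), and Mmp8 was at least 17.1-fold higher (adjusted p 0.023). Ngp was at 2.77 ± 1.58 (adjusted p 0.198). All 13 saline counts of S100a8 and all 13 of S100a9 were in saline replicate 1. Without it S100a8 was fitted at 8.63 (adjusted p 0.0113) and S100a9 at 8.93 (adjusted p 0.0229), against a saline group at 0, so these values depend on the prior count. Only S100a9 did not overlap, as held for 6.06% of all genes. Without MIA_CON_LPS replicate 6 the same 4 were called, against 17% of all genes. The S100a8 call was lost without saline replicate 3 or 4, the S100a9 call without LPS replicate 3 or saline replicate 2, 3 or 4, and the Mmp8 call without saline replicate 1, 3 or 4.

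In CON:PLX only Cxcr2 was called, at a log2 fold change of 2.79 ± 0.933 (adjusted p 0.0218), where 17.5% of all genes were called higher. S100a8 was at 1.15 ± 0.948, S100a9 at 0.35 ± 1.02, Mmp8 at 1.84 ± 1.22 and Ngp at -0.86 ± 0.993, with adjusted p from 0.267 to 0.829. No member separated the groups, against 9.42% of all genes. Without CON_PLX_SAL replicate 2, all 5 were called higher (14.6% of all genes) and all 5 separated the groups (10.5% of all genes). S100a8 then had a ratio of counts of 40.6 (95% interval 13.8 to 198; adjusted p 0.00365), and S100a9 a log2 fold change of 4.53 ± 1.43 (adjusted p 0.0178). Cxcr2 was at least 22.3-fold higher (adjusted p 0.000606) and Ngp at least 15.2-fold higher (adjusted p 0.00411). Mmp8 had a ratio of 38.0 (95% interval 6.63 to 1517; adjusted p 0.0398). The Cxcr2 call with replicate 2 kept in was lost without saline replicate 1, 3 or 4.

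In MIA:PLX, 2 of the 5 were called, against 11.8% of all genes. S100a8 changed by 3.73 ± 1.34 on the log2 scale (adjusted p 0.043), and Cxcr2 had a ratio of counts of 63.8 (95% interval 11.2 to 2543; adjusted p 0.00617). S100a9 was at 3.50 ± 1.48 (adjusted p 0.0881) and Ngp at 2.13 ± 1.39 (adjusted p 0.298). Mmp8 was at least 8.66-fold higher with an adjusted p of 0.0666, which does not pass (0.0457 without LPS replicate 2). Only Cxcr2 did not overlap, as held for 8.9% of all genes. The S100a8 call was lost without LPS replicate 4, 5 or 6 and without any of the 3 saline libraries, whereas the Cxcr2 call was not lost without any library of the arm. Cxcr2 was the 1 member called in all 4 arms, although not in CON:PLX without the filter on low counts (adjusted p 0.0659). This count does not compare the arms. No member was called lower in any arm, where 9.84% of all genes were in CON:CON, 10.9% in MIA:CON, 14% in CON:PLX and 10.4% in MIA:PLX.

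**Figure D2:**
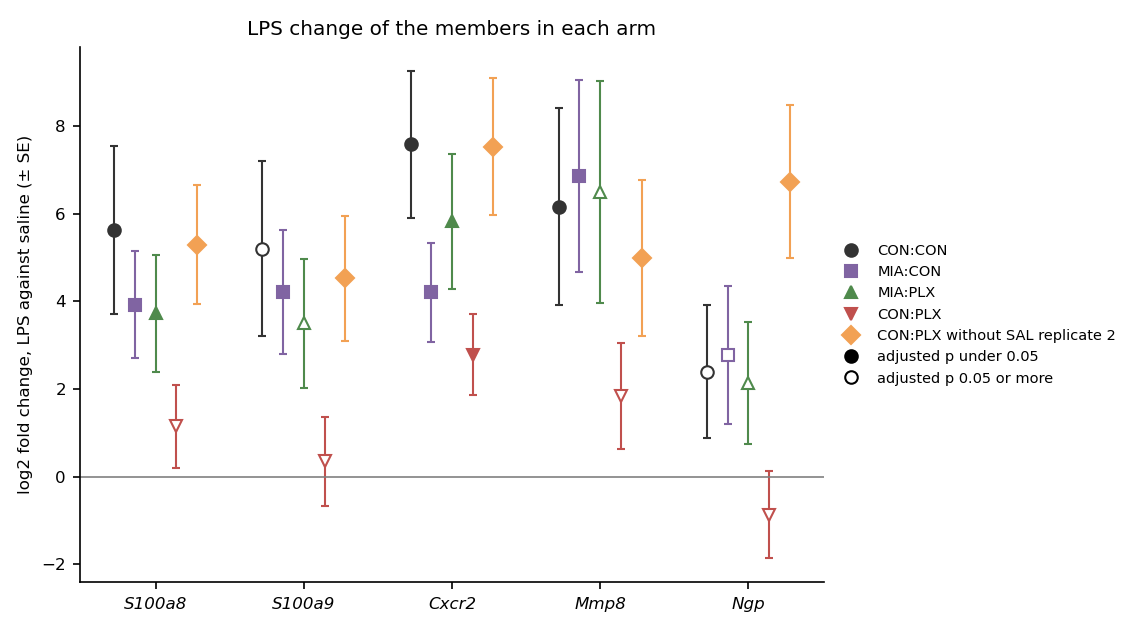
Log2 fold change of LPS against saline by edgeR for the 5 members tested, by arm, with CON:PLX also shown without its saline replicate 2. Bars are ± SE, back-calculated from the F statistic of the test. Filled symbols have an adjusted p under 0.05. CON:PLX lies lowest for all 5 members and moves up when replicate 2 is left out; values of Cxcr2, Mmp8 and Ngp depend on the prior count where a saline group is at 0.

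Ltf and Camp could be fitted only when the filter on low counts was dropped, over 28950 genes. In CON:PLX both were then called lower after LPS, at -5.38 ± 1.25 for Ltf (adjusted p 0.00152) and -3.83 ± 1.34 for Camp (adjusted p 0.0485), where 5.66% of genes were called lower. Both calls rested on CON_PLX_SAL replicate 2: without it there was 1 count of each gene in the LPS libraries and 1 in the saline libraries, and the adjusted p was 0.963 for Ltf and 1 for Camp. In the other arms the adjusted p of Ltf and Camp ran from 0.576 to 1. Without the filter the members called higher were 1 in CON:CON against 5.16% of genes, 1 in MIA:CON against 4.86%, 0 in CON:PLX against 6.7% and 1 in MIA:PLX against 3.97%, and each of the 3 was Cxcr2. In CON:PLX without saline replicate 2 they were 4, against 5.38% of genes.

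CON_PLX_SAL replicate 2 held 495 counts of the members, of which 169 were S100a9, 131 Ngp, 86 S100a8, 56 Ltf, 19 Camp, 17 Cxcr2 and 17 Mmp8. The other 14 saline libraries together held 120. Among genes with at least 20 counts in a saline library, 5 in CON_PLX_SAL replicate 2 were 10 or more times above every other saline library: S100a9, Ngp, Ltf, the erythrocyte anion exchanger gene Slc4a1 and the histidine decarboxylase gene Hdc. This rule was chosen after the values were seen. By the same rule MIA_PLX_SAL replicate 3 had 6 such genes, none a member, and the other 13 saline libraries had 0. Summed erythroid markers (Hba-a1, Hba-a2, Hbb-bs, Hbb-bt and Alas2) stood at 133 CPM in CON_PLX_SAL replicate 2, against 0.124 to 26.5 in the other saline libraries and 0.223 to 9.13 in LPS libraries. Summed homeostatic microglia markers stood at 19509 CPM, within the 19164 to 21624 CPM of the other saline libraries. The part of blood cells in the neutrophil counts of this library was not tested.

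The make-up of the pooled counts differed between LPS and saline. Ngp, Ltf and Camp together took 9.74% of the 2782 member counts pooled over LPS libraries, 39.2% of the 120 counts pooled over the other saline libraries, and 41.6% (95% exact binomial interval 37.2 to 46.1, counting error only) of the counts of CON_PLX_SAL replicate 2. Among the 21 LPS libraries with at least 20 member counts the share ran from 0% to 43.5% with a median of 7.62%. Of the 4 such saline libraries, it stood at 14.3% in MIA:CON replicate 1 and 41.6% in CON:PLX replicate 2. In MIA:PLX replicates 2 and 4 it stood at 58.6% and 42.9%, so the ranges overlapped. Those 2 MIA:PLX libraries held 17 and 12 of the 47 granule gene counts pooled over the other saline libraries. Cxcr2 took 17.7% of the pooled counts after LPS and 5% in the other saline libraries, and Mmp8 took 8.63% and 0.833%. S100a8 and S100a9 took 63.9% and 55%. These shares pool libraries and carry no test between conditions.

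**Figure D3:**
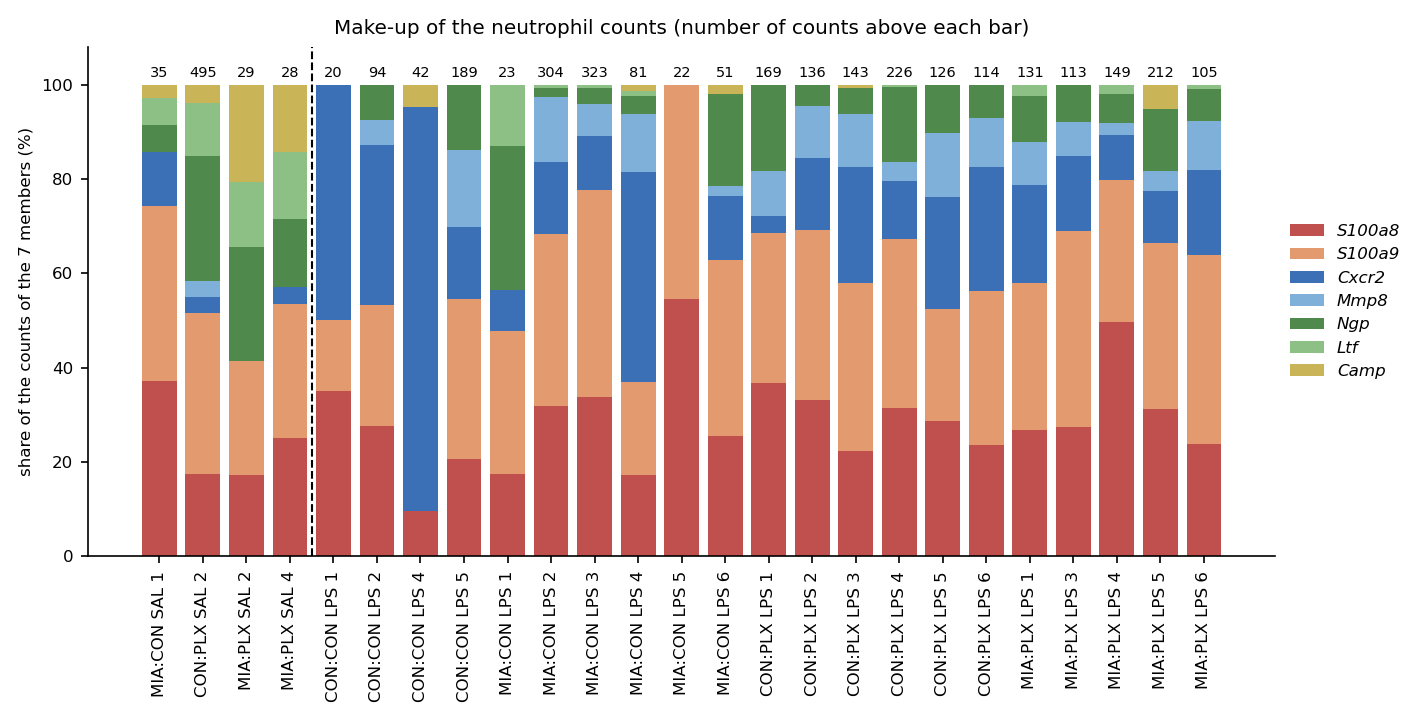
Share of each member in the counts of the 7 members, in percent, for the 25 libraries with at least 20 such counts; numbers above the bars are counts, and the dashed line parts saline (left) from LPS (right). Ngp, Ltf and Camp take 14.3% to 58.6% in the 4 saline libraries and a median of 7.62% in the LPS libraries, and Cxcr2 takes 85.7% in CON:CON LPS replicate 4.

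Cxcr2 did not follow calprotectin in every LPS library. CON:CON LPS replicate 4 held 36 Cxcr2 counts with 4 of S100a8 and none of S100a9 or Mmp8, so that Cxcr2 took 85.7% of its member counts. MIA:PLX LPS replicate 2 held 7 Cxcr2 counts, 1 of S100a8 and none of S100a9. In the other direction, MIA:CON LPS replicate 5 held 12 S100a8 and 10 S100a9 counts and none of Cxcr2, and CON:PLX LPS replicate 1 held 62 and 54 with 6 of Cxcr2. Over the 22 LPS libraries Cxcr2 had an r of 0.43 with S100a8 (rho 0.40) and of 0.66 with Mmp8 (rho 0.67), whereas S100a9 had an r of 0.83 with Mmp8 (rho 0.79) and of 0.74 with Ngp (rho 0.67). These describe libraries prepared alike and carry no test.

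**Figure D4:**
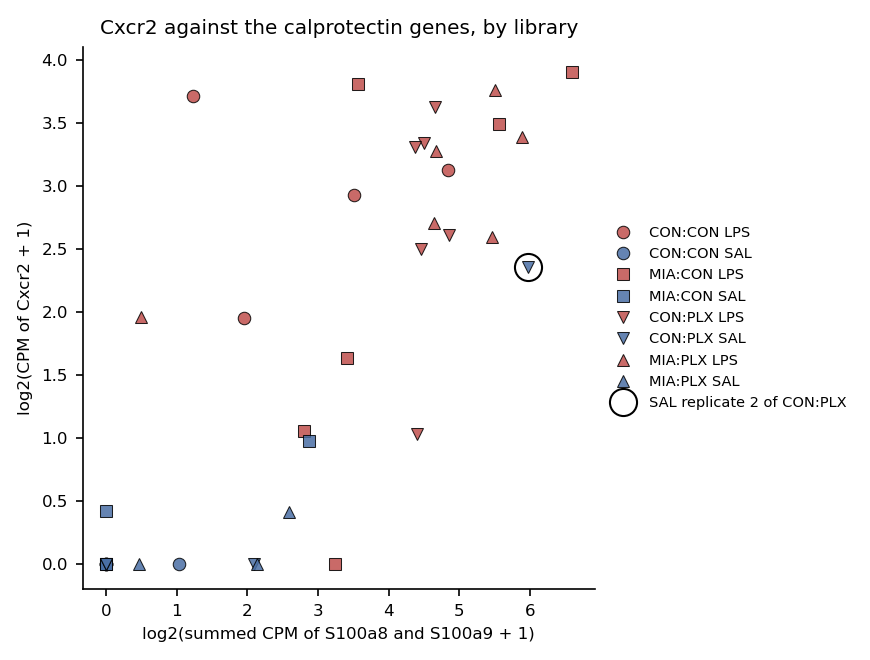
Cxcr2 against the summed level of S100a8 and S100a9, both as log2(CPM + 1), for the 37 libraries; colour gives the injection, shape the arm, and the ring marks CON_PLX_SAL replicate 2. CON:CON LPS replicate 4 is at the top left with 12.2 CPM of Cxcr2, and MIA:CON LPS replicate 5 is on the horizontal axis with no Cxcr2 count.

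No member was called between prenatal MIA and CON or between PLX and CON, after either injection, or in the interactions of these with LPS, 12 comparisons in all. edgeR, DESeq2 and limma voom each called 0 of the 5 in all 12. Among all genes, edgeR called 0% in 10 of these comparisons, 0.0149% for MIA against CON with PLX after LPS and 0.00745% for PLX against CON with prenatal CON after LPS. At an unadjusted p under 0.05, edgeR counted 4 members higher in PLX than in CON with prenatal CON after saline and 2 lower in the matching interaction with LPS, and DESeq2 counted 5 and 3. Both comparisons contain CON_PLX_SAL replicate 2, and without it edgeR counted 0 and 0. Without it Ngp alone had an unadjusted p under 0.05, for MIA against CON with PLX after saline (log2 difference 4.93 ± 2.03, p 0.0209, against -2.67 with that library) and in its interaction with LPS (-4.61 ± 2.17, p 0.0412, against 2.99), with an adjusted p of 1 and 0.99998.

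After LPS, the MIA minus CON differences of the 5 members lay between -0.01 and 1.503 without PLX and between -0.19 and 0.58 with PLX on the log2 scale, with a smallest unadjusted p of 0.131 and 0.483 by edgeR. The PLX minus CON differences after LPS lay between -0.04 and 1.10 with prenatal CON and between -0.36 and 1.07 with prenatal MIA, with a smallest p of 0.259 and 0.305. Such p-values do not show that the groups were alike.

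A wider list chosen as neutrophil markers was also counted, and which cells its counts came from was not tested. It held 39 genes. Of these, 34 had a count and 16 passed the filter. Averaged over the arms, 13 were called higher after LPS (30.3% of all genes) and 2 lower, Csf3r and Chil1 (26% of all genes). The median log2 fold change of the 16 was 5.32, against 0.03 over all genes tested, and stayed at 5.32 with Trem1 at its bound. By arm, 11 of the 16 were called higher in CON:CON (13.7% of all genes), 12 in MIA:CON (14.5%), 10 in CON:PLX (17.5%) and 12 in MIA:PLX (11.8%), and none lower. Trem1, Clec4d, Retnlg and Fpr2 had at most 2 counts over the 14 other saline libraries and so passed the filter through LPS libraries. So did Il1r2, Lrg1, Mcemp1 and Hp, which reached at most 1.14 CPM in those saline libraries. For such genes a higher level was nearly given, so these counts and the median are a description. The 8 with the smallest p were Il1r2, a decoy receptor for interleukin 1, Lrg1, an acute-phase glycoprotein, Trem1, an activating receptor of myeloid cells, Mcemp1, Lcn2, the siderophore-binding protein of neutrophil granules, Clec4d, Fpr2, a formyl peptide receptor, and Hp, haptoglobin. Il1r2 ran from 13.1 through 196 to 361 CPM in LPS libraries and reached 1.14 CPM in the other saline libraries, a log2 fold change of 9.14 ± 0.62 (adjusted p 1.34e-13). Lcn2 ran from 13.2 through 103 to 577 CPM, against at most 3.41 CPM, and changed by 6.55 ± 0.627 (adjusted p 3.15e-10). Lcn2 in CON_PLX_SAL replicate 2 was at 12.9 CPM. Trem1 had 3143 counts after LPS and none in any saline library.

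Ly6g, the surface antigen used to sort mouse neutrophils, had 9 counts in 4 LPS libraries, 1 in CON_PLX_SAL replicate 2 and 0 in the other saline libraries. Retnlg, a secreted protein of mature neutrophils, had 106 counts over 17 LPS libraries and 15 in CON_PLX_SAL replicate 2, and was at 0 in the other saline libraries (log2 fold change 4.25 ± 0.974, adjusted p 0.000508). Csf3r, the receptor for granulocyte colony-stimulating factor, was high without LPS, with a median of 387 CPM in the other saline libraries, and fell by 0.94 ± 0.236 on the log2 scale (adjusted p 0.00106). It was at 384 CPM in CON_PLX_SAL replicate 2. The primary granule genes were at or near 0: Elane and Ctsg had no count in any library used, and Mpo had 1 in an LPS library and 1 in CON_PLX_SAL replicate 2. A count of 0 for Elane over all LPS libraries allows up to 0.0407 CPM.

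Of 7 genes for calprotectin receptors and other S100 proteins, 5 were tested and 3 were called higher after LPS (30.3% of all genes), namely S100a10 (2.22 ± 0.34, adjusted p 8.87e-07), S100a11 (1.99 ± 0.309, adjusted p 1.12e-06) and S100a6 (3.94 ± 0.647, adjusted p 4.09e-06), which is also on the monocyte list. The median of the 5 was 1.99. The receptor genes Ager, at 0.78 ± 0.354 (adjusted p 0.0582), and Tlr4, at -0.16 ± 0.19 (adjusted p 0.477), did not pass. Of 6 genes for CXC chemokines listed as ligands, 3 were tested and 2 were called higher (30.3% of all genes), with a median of 5.52: Cxcl2 (5.52 ± 0.561, adjusted p 1.1e-09) and Cxcl1 (5.64 ± 0.825, adjusted p 8.54e-07). The third tested, Pf4, is a platelet chemokine that is not a usual CXCR2 ligand, and was at -0.16 ± 0.516 (adjusted p 0.813). Cxcl2 ran from 3.04 through 142 to 426 CPM after LPS and reached 9.51 CPM in the other saline libraries. Ppbp had no count in any library used and Cxcl5 had 1. S100a6 and Cxcl1 had 2 and 3 counts over the 14 other saline libraries and so passed the filter through LPS libraries. So did S100a10, which reached at most 2.43 CPM in the other saline libraries and 1.94 CPM in CON_PLX_SAL replicate 2. The counts of calls and the medians of these 2 lists are therefore a description.

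Markers of monocytes and of homeostatic microglia moved with the injection. No lymphocyte, mast cell and basophil or neutrophil precursor marker was tested. Of 8 monocyte markers, 6 were tested, 5 were called higher after LPS (30.3% of all genes) and 1 lower (26% of all genes). Their sum was 26.1 to 572 CPM in LPS libraries, 4.57 to 17.4 in the other saline libraries and 23.6 in CON_PLX_SAL replicate 2, and most of the LPS counts were of Fn1 (10681 counts). Plac8, Chil3 and S100a6 had at most 6 counts over the 14 other saline libraries and so passed the filter through LPS libraries. The counts of calls are therefore a description. The 2 markers that define inflammatory monocytes went opposite ways. Ly6c2, not tested, had 80 counts after LPS, 0 in the other saline libraries and 2 in CON_PLX_SAL replicate 2, whereas Ccr2 had 178, 323 and 24 and fell by 1.41 ± 0.277 on the log2 scale (adjusted p 4.62e-05). All 10 homeostatic microglia markers were called lower, where 26% of all genes were, with sums of 5505 to 15810 CPM after LPS. Lymphocyte markers summed to at most 1.73 CPM in LPS libraries and to 2.43 CPM in CON_PLX_SAL replicate 2, with Trbc2 and Nkg7 at 0 throughout. Of 4 mast cell and basophil markers, Mcpt8, Cpa3 and Fcer1a were at 0 in all libraries used. Over the 22 LPS libraries the summed members had an r of 0.48 with the summed monocyte markers (rho 0.44). With the share of mitochondrial ribosomal RNA r was 0.50 (rho 0.32). It was -0.58 with lymphocyte (rho -0.46), -0.40 with mast cell and basophil and -0.09 with neutrophil precursor markers. The last 2 values rest on single counts. In LPS libraries the mast cell and basophil list had 2 counts, both of Ms4a2, and the precursor list had 1 of Mpo and 1 of Prtn3. For erythroid, platelet and homeostatic microglia markers r was 0.04, 0.05 and -0.0006. Border-associated macrophage markers (7 genes) summed to 7.07 to 189 CPM in LPS libraries, 33.5 to 99.2 in the other saline libraries and 110 in CON_PLX_SAL replicate 2, with an r of 0.54 with the members over LPS libraries. Platelet markers (5 genes) summed to 2.52 to 16.9, 11.1 to 34.4 and 17.5 CPM. Most of these counts were of Gp9, with 444 in LPS libraries and 851 in the other saline libraries. Pf4, also on the border-associated macrophage list, had 111 and 81, and Ppbp had none. Neutrophil precursor markers (4 genes) summed to at most 0.307, 0.379 and 0.486 CPM. Averaged over the arms, 2 of 6 border-associated macrophage markers tested were called higher (30.3% of all genes). Of 2 platelet markers tested, 1 was called lower (26% of all genes). Of 2 erythroid markers tested, 2 were called lower (26% of all genes). Hbb-bs was at -1.83 ± 0.753 (adjusted p 0.0383) and Hbb-bt at -2.17 ± 0.888 (adjusted p 0.0364). By arm both were called lower in CON:PLX alone (14% of all genes), where saline replicate 2 held 77.4 and 32.7 CPM. The part of these cells in the neutrophil transcripts was not tested.

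Outside the lists above, the genes whose level was most like that of the summed members over the 22 LPS libraries were Adgre5 (r 0.81), which encodes the leukocyte adhesion receptor CD97, Ndufb1-ps (r 0.79), Nfkbid (r 0.74), Bcl2a1b (r 0.73) and Nfkbie (r 0.72). Bcl2a1b and Ndufb1-ps have near-identical copies, between which counts may be split. Adgre5 ran from 0 through 4.54 to 12.5 CPM after LPS. Over the 15 saline libraries the most alike were Zxda (r 0.82), Clec4e (r 0.81), Sox11 (r 0.79), Acbd4 (r 0.79) and Cfl2 (r 0.76), and over the 14 without CON_PLX_SAL replicate 2 they were Jund (r 0.85), Zc3h12d (r 0.84), Pdgfb (r 0.83), Arf4 (r 0.83) and Rgs3 (r 0.82). These saline lists have no gene in common. Each r is over log2(CPM + 1) in libraries that share preparation, and these genes were ranked by it, so it carries no test. For comparison, over the LPS libraries Retnlg had an r of 0.77, Il1r2 of 0.40, Lcn2 of 0.38, Csf3r of 0.27 and Trem1 of 0.21. Over the 15 saline libraries Lcn2 had 0.84, Retnlg 0.76, Il1r2 0.04 and Csf3r -0.02.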

How the data were processed

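RNA of sorted striatal microglia was amplified with Ovation RNA-Seq v2, which keeps no strand, per the labels' protocols. The authors deposited 1 table of estimated counts per gene for 39 libraries, of which 14.71% of nonzero values are not whole. The submitters' processing notes name STAR, RSEM and DESeq2, and neither versions nor a genome build are given in the sources used here. Identifiers were matched to GENCODE M21 (54349 of 55487 with version, 55141 in all), and rows without a symbol held 0.0132% of counts.

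The 7 members and all gene lists were chosen with earlier results of these data known. The rise of Cxcr2, Mmp8 and S100a8 after LPS was among these results and is no independent support here. Estimated counts were rounded and fitted with edgeR 4.0.16 (limma 3.58.1, R 4.3.3) on 37 libraries, 1 mean for each of the 8 groups, with TMM scaling, a minimum count of 10 (total 15) and 17 contrasts. The quasi-likelihood test was two-sided, and the procedure was tested on simulated data. CPM values use the deposited totals and are not TMM-scaled. Intervals on count ratios are exact and, like the floor of 3 counts, cover counting error only.

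Beside the members, the genes named were the 8 of the wider neutrophil list with the smallest p for LPS, Ly6g, Csf3r, Mpo, Elane, Retnlg and Lcn2, up to 4 partners and ligands by p, and the 5 named genes outside the lists most alike over LPS and over saline libraries. Ctsg, Cxcl5, Ppbp, Slc4a1, Hdc and the markers of other cells were named after their values were seen. Alternatives were DESeq2 1.42.0, voom, RLE scaling, no filter, a replicate block, only the groups compared, the marked libraries included, and each library left out. After seeing the data, 2 were added: leaving out CON_PLX_SAL replicate 2 together with MIA_CON_LPS replicate 6, or together with the filter.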

Additional observations from a re-analysis of the deposited data

Results flagged for a closer look

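Of 52 groups of 4 to 6 libraries examined, 22 had a library whose gap to the nearest other exceeded Dixon's critical value. Chance gives about 1 in 20, and groups in which all but 1 library had no count pass at a single count. CON_PLX_SAL replicate 2 stood above its group for every member, with 20.9 CPM of S100a8, 41.1 of S100a9, 4.13 of Cxcr2, 4.13 of Mmp8, 31.8 of Ngp, 13.6 of Ltf and 4.62 of Camp, and a sum of 120 CPM.

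MIA_CON_SAL replicate 1 stood above its group with 3.17 CPM of S100a8, 3.17 of S100a9, 0.488 of Ltf and 0.244 of Camp, a sum of 8.54 CPM from 35 counts. CON_CON_SAL replicate 2 did so with 0.348 CPM of S100a8, 0.697 of S100a9, 0.348 of Ltf and 0.697 of Camp, each from 1 or 2 counts. Among LPS libraries, CON_CON_LPS replicate 5 stood above its group with 8.3 CPM of Mmp8 (31 counts) and MIA_PLX_LPS replicate 5 with 4.53 CPM of Camp (11 counts). Values that rest on 1 or 2 counts were 0.676 CPM of Camp in CON_CON_LPS replicate 4, 0.183 of Ltf in CON_PLX_LPS replicate 4 and 0.262 of Camp in CON_PLX_LPS replicate 3.

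MIA_PLX_SAL replicate 1, whose title marks it for exclusion, held 15.2 CPM of the members (52 counts), against 0.379 to 9.40 CPM in the other MIA:PLX SAL libraries. CON_CON_LPS replicate 3, marked likewise, held 1.54 CPM (6 counts), against 5.76 to 50.6 CPM in the other libraries of its group.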

How the results depend on the processing

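Averaged over the arms, 5 members were called, and 4 or 5 were under each alternative and each left-out library. In CON:CON, where 3 were called, 1 was without the filter, 1 with the replicate block and 1 of the 1 member that still passed the filter when only the groups compared were fitted, and leaving out 1 library gave 1 to 4. In MIA:CON, where 4 were called, 1 was without the filter and 2 of the 2 still tested with only the groups compared, and leaving out 1 library gave 1 to 4. In CON:PLX, where 1 was called, 5 were with voom, 2 without the filter (Ltf and Camp, lower), 5 without CON_PLX_SAL replicate 2 and MIA_CON_LPS replicate 6, and 4 without that saline library and the filter. Leaving out 1 library gave 0 (saline replicate 1, 3 or 4) to 5 (saline replicate 2). In MIA:PLX, where 2 were called, 1 was without the filter, 1 with the marked libraries, 4 of 5 tested with only the groups compared and 4 without those 2 libraries, and leaving out 1 library gave 1 to 3. The other 12 contrasts had 0 members called under each alternative run.

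Among the members' changes with LPS, direction turned in CON:PLX alone. S100a9 was at -0.071 to 4.53 on the log2 scale when 1 library was left out. Ngp was at -1.28 to 6.73 when 1 library was left out, at 2.93 with voom, at 6.73 without CON_PLX_SAL replicate 2 and MIA_CON_LPS replicate 6, and at 6.75 without that saline library and the filter. The cause was not tested. Outside the LPS contrasts, members turned without CON_PLX_SAL replicate 2, with none called in either fit. S100a8, S100a9, Cxcr2 and Ngp did so for MIA against CON with PLX after saline (Ngp from -2.67 to 4.93) and in its interaction with LPS (Ngp from 2.99 to -4.61). Ngp also turned for PLX against CON with prenatal CON after saline (4.00 to -3.60) and in that interaction (-3.26 to 4.35). Over all genes, voom called 3306 higher and 3126 lower in CON:PLX (2354 and 1874 with edgeR) and 2351 and 2245 in MIA:PLX (1589 and 1401). Fitting only the groups compared called 1246 and 982 in MIA:CON (1941 and 1462). For the mean over the arms that alternative is the same fit, so it gave no further value. The summed level in CON:PLX LPS was 43.9 CPM with mitochondrial ribosomal RNA left out of the totals, against 36.5.

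Replicate numbers did not pair the libraries: correlations of same-numbered deviations ran from -0.072 to 0.141. With the replicate block Ngp was not called over the arms (adjusted p 0.114), nor were S100a8 (0.0724) and Mmp8 (0.138) in CON:CON and S100a9 (0.063) in MIA:CON. At 1510020 to 5746239 counts a library, Ltf had a count in 8 and Camp in 5 of the 22 LPS libraries. Both genes rest on few counts, and the part of depth in this was not tested.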
